A study of Mus musculus with 2 samples.

Results

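The proteasome is the large protease that degrades ubiquitin-tagged proteins, and its genes were compared in liver RNA from male mice with and without Iah1. Members were the genes whose platform symbol starts with Psma, Psmb, Psmc, Psmd, Psme, Psmf or Psmg followed by a digit, read from probe sets with 1 symbol and without pseudogenes. This gave 49 of 22180 genes, carried by 52 of the 23521 probe sets with 1 symbol. Of the 49, 5 were taken apart as the interferon-inducible group (Psmb8, Psmb9, Psmb10, Psme1 and Psme2) and 44 made up the rest. Psmc3ip, which encodes a cofactor of meiotic recombination, and Psme3ip1, named as an interaction partner of PSME3, entered by their letters and are no proteasome subunits. Psma4 was measured only by probe sets that also name another gene and is not among the 49.

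Both groups were caged singly, ate a high-fat diet for 12 weeks starting at 6 weeks of age, and had food removed for 4 hours before tissue was taken. The genotypes are labelled Iah1-WT and Iah1-KO, the latter a systemic knockout, and neither the allele nor the strain is given in the sources used here. Each genotype was 1 Affymetrix array that carried the pooled liver RNA of 3 mice, so no value has a replicate error and no test between genotypes was possible. Words such as higher and lower describe these 2 arrays, and chow-fed mice were not analysed here.

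The core particle (20S) is a barrel of alpha rings outside and beta rings inside, and PSMB5, PSMB6 and PSMB7 hold its proteolytic sites. The regulatory particle (19S) caps the barrel, and its ATPases unfold substrates while its non-ATPase subunits bind ubiquitin chains and remove them. Interferon-gamma induces PSMB8, PSMB9 and PSMB10, which replace the constitutive catalytic subunits and favour peptides that fit MHC class I molecules, and also the PA28 activator, built from PSME1 and PSME2. Hepatocytes express mainly the constitutive form, whereas immune cells carry more of the immunoproteasome. In cells short of proteasome activity, the transcription factor NRF1 (Nfe2l1) raises the genes of the constitutive particle together.

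The deposited values are log2 signals, and the 41345 probe sets had a median of 4.08 on the WT array and 4.10 on the KO array. Iah1 itself read 8.59 in WT and 3.90 in KO, below the filter described next, as the labels require. A gene was compared where the higher of its array values reached 4.68, the median over genes, and 11090 genes did. All differences are KO minus WT on the log2 scale. Their median over the 11090 genes was -0.02. An error could be estimated only where probe sets measured the same gene, and their differences scattered with a standard deviation (SD) of 0.26 (326 genes). Among probe sets with a mean signal of 6.44 or more, where most members lie, it was 0.17 (91 genes), which corresponds to 1.12-fold. It leaves out differences between mice, labelling and hybridisation.

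Proteasome genes differed little between the arrays. Of the 49 members, 44 passed the intensity filter, 43 of them on both arrays and Psmc3ip on the KO array alone (4.56 in WT and 4.80 in KO). None of the 44 differed by 1.5-fold or more, where 1.47% of all genes compared were higher and 2.45% lower. At 1.2-fold, 1 member was higher and 2 were lower, against 9.3% and 14.4% of all genes. Because weak signals scatter more, the same count was read among the 39 members with a mean signal of 6.44 or more. There, 3 members (7.69%) passed 1.2-fold in either direction, against 11.7% of the 5545 genes with such signals. The SD of the members' differences was 0.14 in this range and that of all genes 0.18. This range is not evenly filled, since 28 of the 39 members had a mean signal of 7.63 or more. Among those 28 the SD was 0.10, against 0.16 for all genes there. Among the 11 members with weaker signals in this range it was 0.20, the same as for all genes there. Of these 11, 2 were lower by 1.2-fold or more, against 11.1% of genes. Within this range, the smaller spread was thus seen only among the brightest members.

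**Figure D1:**
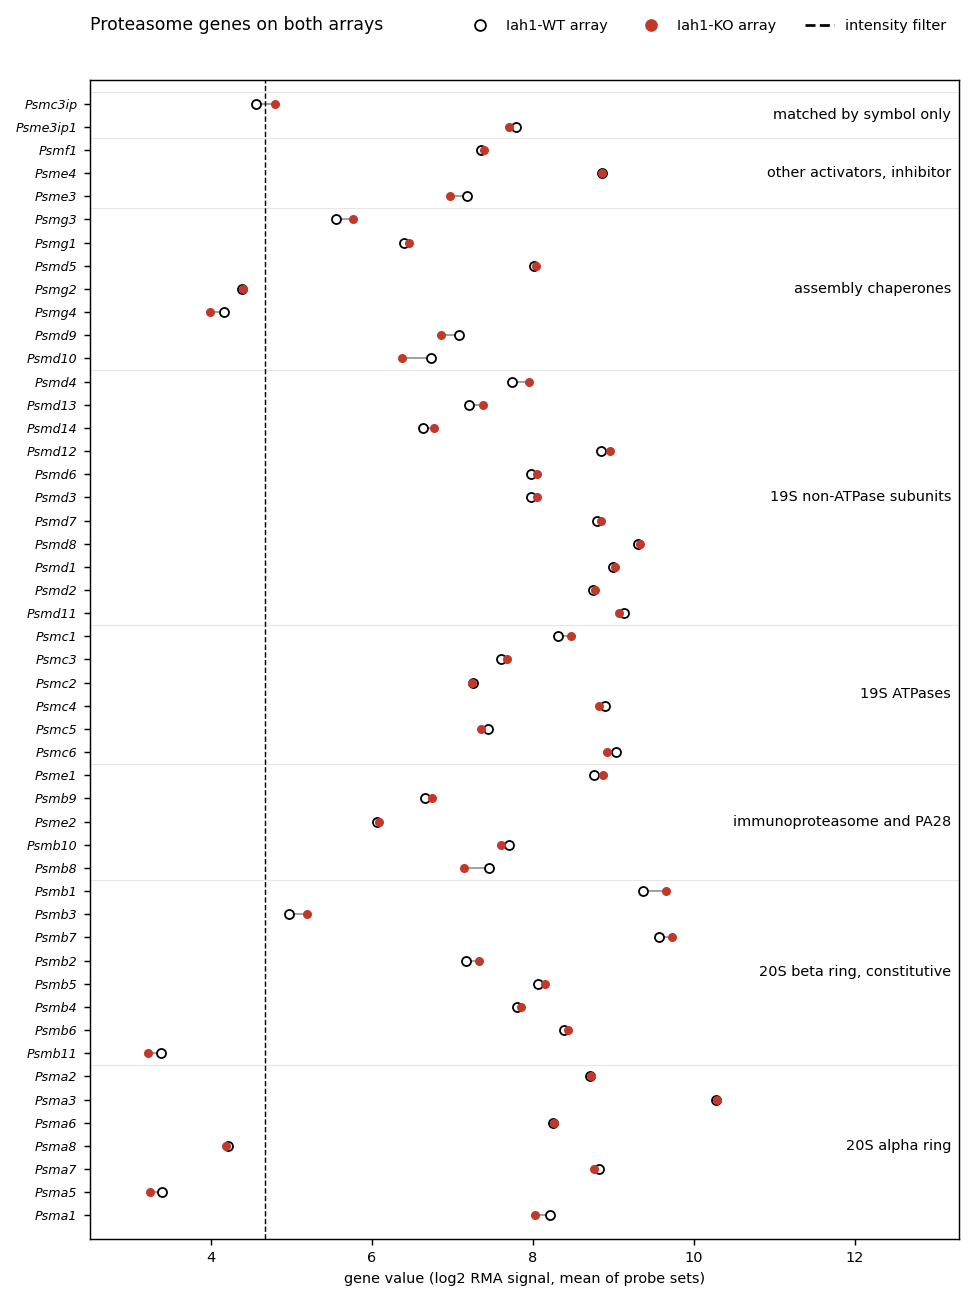
Gene value on the x axis (log2 RMA signal, mean of a gene's probe sets) for the 49 members, with open circles for the Iah1-WT array, filled circles for the Iah1-KO array and a dashed line at the intensity filter of 4.68. The circles of most genes overlap, and the widest gap above the filter belongs to Psmd10 (6.74 in WT and 6.38 in KO); positions of different genes depend on their probes and are not comparable.

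Within this narrow range most members lay on the KO side. Differences above 0 were seen in 31 of 44 members (70.5%), against 44.3% of all genes compared. Among members with a mean signal of 6.44 or more, 26 of 39 (66.7%) were above 0, against 43.1% of genes there. The excess lay in the brighter part of that range. At 7.63 or more, 21 of 28 members (75%) were above 0, against 44.8% of genes. Between 6.44 and 7.63, 5 of 11 members (45.5%) were, near the 41.5% of genes. The size was small, with 26 of 44 members within 0.1 of 0 and 35 within 0.2. Over the 11090 genes compared, 4349 were within 0.1 and 7312 within 0.2. Of the 28 brightest members, 20 were within 0.1 and 26 within 0.2, against 1642 and 2379 of 2773 genes there. Differences this small were thus common among bright genes in general. The median was 0.03 for the 39 genes outside the interferon-inducible group that passed the filter, against -0.02 for all genes compared.

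**Figure D2:**
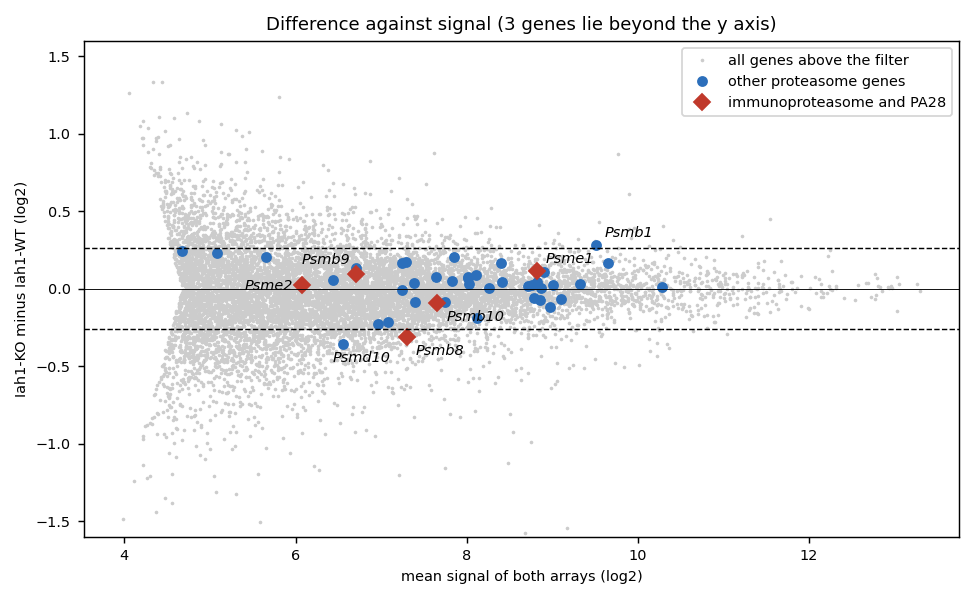
KO minus WT (log2, y axis) against the mean signal of both arrays (log2, x axis), with grey points for the 11090 genes compared, circles for the 39 other proteasome genes, diamonds for the 5 interferon-inducible ones and dashed lines at 1.2-fold. Psmb1 lies above the upper line, Psmb8 and Psmd10 lie below the lower one, and the remaining members lie between them.

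The interferon-inducible genes did not share a direction. Psmb8, which encodes the immunoproteasome's beta5 subunit (Entrez gene 16913), read 7.46 in WT and 7.14 in KO, which is 1.24-fold lower (-0.31). Among genes with a mean signal between 6.44 and 7.63, as Psmb8 has, 11.1% were lower by 1.2-fold or more. In whole tissue, fewer cells that express a gene and less of its RNA per cell cannot be told apart. Psmb10, the beta2 counterpart, read 7.70 in WT and 7.61 in KO (-0.09).

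The other members of this group were slightly higher in KO. Psmb9, the beta1 counterpart, was at 6.66 in WT and 6.75 in KO (0.09). Of the PA28 subunit genes, Psme1 was at 8.76 in WT and 8.88 in KO (0.12). Psme2 was at 6.07 in WT and 6.09 in KO (0.02). Apart from Psmb8, each of these differences was below the probe set SD. The group median was 0.02 and its mean -0.03, so these summaries differ in sign.

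The catalytic genes were next set against the subunits they replace. Psmb5, the constitutive partner of Psmb8, was at 8.07 in WT and 8.16 in KO (0.09), so Psmb8 was 1.32-fold lower relative to it (-0.40). Psmb7, the partner of Psmb10, was at 9.57 in WT and 9.73 in KO (0.17). Psmb10 shifted by -0.26 relative to Psmb7. Psmb6, the partner of Psmb9, was at 8.39 in WT and 8.43 in KO (0.04), and that pair shifted by 0.05. The SD expected for such a relative shift from probe sets alone is 0.24. The Psmb8 pair exceeded it, the Psmb10 pair was about equal to it, and the Psmb9 pair was well within it.

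Psmb8 and Psmb9 lie close together in the MHC class II region of chromosome 17, and the RefSeq order there is Psmb9, Tap1, Psmb8, Tap2, H2-Ob, H2-Ab1 and H2-Aa. The genes beside Psmb8 differed by -0.12 for Tap1 and 0.17 for Tap2, the subunits of the peptide transporter. Of the 5 class II genes around Psmb8, which antigen-presenting cells express, the ones above the filter were lower. H2-Ab1 was at 8.49 in WT and 7.70 in KO (-0.79), and H2-Aa was at 6.08 in WT and 5.73 in KO (-0.35). H2-Ob (0.03), H2-DMb1 (0.07) and H2-DMb2 (-0.05) were below the filter on both arrays. Psmb8 thus had the sign of H2-Ab1, H2-Aa and Tap1, while Psmb9 and Tap2 had the opposite sign. The differences of Tap1, Psmb9 and Tap2 were within the probe set SD of their signal range, so their signs are uncertain.

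**Figure D3:**
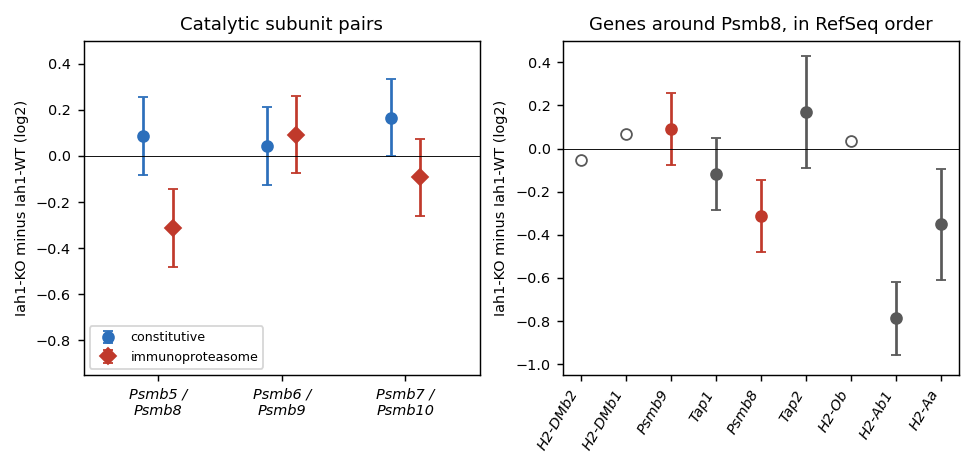
KO minus WT (log2, y axis) for the constitutive and immunoproteasome catalytic genes (left) and for genes around Psmb8 in RefSeq order (right), with bars of ±1 SD between probe sets of 1 gene (0.17, or, for genes with a mean signal below 6.44, the 0.26 found over all signals) and open circles for genes below the filter. Psmb8 is the catalytic gene whose bar stays below 0, and H2-Ab1 is the lowest of the neighbours.

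Markers of macrophages and sinusoidal endothelium were lower on the same array as Psmb8. All 13 Kupffer cell and macrophage markers above the filter were below 0, with a median of -0.47, and 10 were lower by 1.2-fold or more. Of all genes compared, 55.7% were below 0 and 14.4% were lower by 1.2-fold or more. Adgre1, a pan-macrophage surface marker, was at 7.24 in WT and 6.57 in KO, and Clec4f, which defines Kupffer cells, at 8.50 in WT and 8.03 in KO. All 14 sinusoidal endothelial markers were below 0 as well (median -0.48), and 13 were lower by 1.2-fold or more. Summed on the linear scale over every measured marker, the KO array had 0.71 of the WT signal for macrophages and 0.70 for endothelium. The hepatocyte markers had a median of -0.01 and a summed ratio of 0.99. Of 10 stellate cell markers, 7 were below 0 (median -0.18, mean -0.07), against the 55.7% of all genes. Des, a stellate marker that passed the filter only just and on the KO array alone, differed by 0.93 (3.75 in WT and 4.68 in KO). No T and NK cell, B cell or neutrophil marker passed the filter. The part of macrophages and endothelium in the Psmb8 difference was not tested.

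The bases before the starts of Psmb8, Psmb9, Psmb5 and Psmd10 are shown next. Psmb8 and Psmb9 lie close together, with Tap1 between them, and differed in sign, although the sign of Psmb9 is uncertain. Psmb5 is the constitutive counterpart of Psmb8, and Psmd10 had the largest difference of the members above the filter. The sequences come from RefSeq (GRCm38.p6), run 5′ to 3′ on the gene's strand, and cover 250 bases that end just before the annotated start. Capitals mark letter matches on either strand to 3 motifs, which are TGACNNNGC (the core of the antioxidant response element, which NRF1 and NRF2 bind with small MAF proteins), GAAANNGAA (an element of interferon regulatory factors) and CCAAT (the NF-Y box). The windows are chr17:34197945-34198194 on the plus strand for Psmb8, chr17:34187331-34187580 on the minus strand for Psmb9, chr14:54617996-54618245 on the minus strand for Psmb5 and chrX:140956712-140956961 on the minus strand for Psmd10.

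Psmb8: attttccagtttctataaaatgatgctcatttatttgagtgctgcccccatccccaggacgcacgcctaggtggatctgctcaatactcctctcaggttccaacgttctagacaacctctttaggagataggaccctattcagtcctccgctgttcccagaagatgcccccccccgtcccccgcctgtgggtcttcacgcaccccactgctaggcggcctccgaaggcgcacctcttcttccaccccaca

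Psmb9: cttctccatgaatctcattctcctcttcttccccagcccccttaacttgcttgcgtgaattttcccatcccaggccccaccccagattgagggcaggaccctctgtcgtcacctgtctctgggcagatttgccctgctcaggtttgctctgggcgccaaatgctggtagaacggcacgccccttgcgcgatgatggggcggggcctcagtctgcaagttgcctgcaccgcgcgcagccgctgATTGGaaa

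Psmb5: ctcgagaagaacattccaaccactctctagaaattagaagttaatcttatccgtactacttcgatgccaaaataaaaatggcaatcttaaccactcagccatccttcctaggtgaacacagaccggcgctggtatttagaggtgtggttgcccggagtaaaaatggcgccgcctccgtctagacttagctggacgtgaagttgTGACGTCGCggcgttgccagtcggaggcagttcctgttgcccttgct

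Psmd10: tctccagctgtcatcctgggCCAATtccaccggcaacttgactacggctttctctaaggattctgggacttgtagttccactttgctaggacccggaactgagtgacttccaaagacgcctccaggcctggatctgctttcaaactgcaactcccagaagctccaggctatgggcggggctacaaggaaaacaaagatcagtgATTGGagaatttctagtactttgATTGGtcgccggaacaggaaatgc

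The Psmb8 window held no match to these letters. The Psmb9 window held a CCAAT match on the opposite strand, 8 bases before the start, and it is read in the other direction by Tap1, whose annotated start lies 226 bases away. Psmb5 had a match to the antioxidant response core that begins 47 bases before the start. Psmd10 had 3 CCAAT matches, at 230, 47 and 24 bases. No match overlapped another. Letter matches of this kind are descriptions of the sequence and not of bound sites.

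Promoter windows were found in the RefSeq table for 39 of the 47 members that encode proteasome proteins. The antioxidant response core was present in 5 of the 34 genes outside the interferon-inducible group (Psmb5, Psmb6, Psmc6, Psmd9 and Psmd12), or 14.7%, against 11.5% of 27025 genes. The CCAAT letters were in 13 of 34 (38.2%), against 37.5% of all genes. The interferon regulatory element was in 3 of 34 (Psmb3, Psmd4 and Psmd9, or 8.82%, against 8.18% of all genes) and in none of the 5 interferon-inducible genes. Shares this close to those of all genes, or resting on so few windows, set no motif apart in the family.

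In the beta ring, the constitutive genes were higher in KO without exception among the 7 that passed the filter (median 0.17, mean 0.15). Of all genes compared, 44.3% were above 0. Apart from Psmb1, none of the 7 exceeded the probe set SD (0.17, or 0.26 over all signals for the dim Psmb3). Psmb1, a structural beta subunit, was the member above 1.2-fold, at 9.37 in WT and 9.65 in KO (0.28 or 1.22-fold), where 2.24% of genes with a mean signal of 7.63 or more were higher by that much. Psmb3, also structural, was at 4.97 in WT and 5.20 in KO (0.23), and Psmb2 at 7.16 in WT and 7.33 in KO (0.17). Psmb4, a further structural subunit, differed by 0.05. The lowest of the 7 was Psmb6 (0.04). Psmb11, the thymus-specific catalytic subunit, was below the filter on both arrays (3.38 in WT and 3.22 in KO).

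Alpha ring genes lay near 0. Of 7 measured, 5 passed the filter, with a median of 0.00 (0.0030). Psma1 was the lowest, at 8.21 in WT and 8.02 in KO (-0.19 or 1.14-fold), and Psma2 the highest (0.02). Psma3, Psma6 and Psma7 lay between -0.06 and 0.01. Psma8, the testis form, was below the filter, and so was Psma5, whose probe sets disagreed (-0.63 and 0.33).

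In the regulatory particle, 10 of 11 non-ATPase genes and 2 of 6 ATPase genes were above 0, against 44.3% of all genes compared. Most of these differences were small, with 7 non-ATPase and 4 ATPase genes within 0.1 of 0, as were 4349 of the 11090 genes compared. The non-ATPase genes had a median of 0.07. The ubiquitin receptor gene Psmd4 was at 7.74 in WT and 7.95 in KO (0.20 or 1.15-fold). Psmd13 was at 7.21 in WT and 7.38 in KO (0.17). Psmd14, the deubiquitinase of the lid, differed by 0.13 and Psmd12, a lid scaffold, by 0.11. The scaffolds Psmd1 and Psmd2 were at 0.03 and 0.02, and the 1 gene below 0 was Psmd11 (-0.07). The ATPases, which form a ring, had a median of -0.04, from -0.12 for Psmc6 to 0.16 for Psmc1 (8.32 in WT and 8.48 in KO). Psmc2 combined probe sets at -0.07 and 0.05. None of the genes in either class reached 1.2-fold.

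Assembly chaperones held the member with the largest difference. Psmd10 (gankyrin), which helps build the ATPase ring, was at 6.74 in WT and 6.38 in KO (-0.36 or 1.28-fold). Psmd9, a chaperone of the same ring, was at 7.08 in WT and 6.85 in KO (-0.23 or 1.17-fold), just short of 1.2-fold. Psmd5, a further one, read 8.02 in WT and 8.04 in KO (0.03). Of the ring chaperones named here, Psmd10 and Psmd9 were thus lower in KO, while Psmd5 lay near 0. Each was read by 1 probe set. Among genes with a mean signal between 6.44 and 7.63, as Psmd10 and Psmd9 have, 11.1% were lower by 1.2-fold or more. Psmg3, which with PSMG4 assists the alpha ring, was at 5.56 in WT and 5.76 in KO (0.20), and Psmg1 differed by 0.06. Psmg2 and Psmg4 were below the filter, Psmg2 because the mean joins a probe set at 6.44 in WT and 6.36 in KO with a dim one.

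Of the other activators, Psme3, the nuclear PA28 gamma, was at 7.18 in WT and 6.97 in KO (-0.22 or 1.16-fold). Psme4, the activator PA200, was at 8.86 on both arrays. The inhibitor gene Psmf1 differed by 0.03. By letters alone, Psmc3ip differed by 0.24 and Psme3ip1 by -0.08.

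The machinery around the proteasome showed values of the same size. Of 15 measured partners without a Psm symbol, 7 were above 0 and the median was -0.02, as over all genes. In this list Ubqln4, a shuttle for ubiquitinated proteins, was 1.23-fold lower (-0.29), Txnl1, a redox protein bound to the regulatory particle, was at 0.19, and the maturation factor Pomp at 0.18. Genes of the NRF1 route had a median of 0.04 with 5 of 9 above 0, and of -0.03 by the brightest probe set of each gene. Nfe2l1 itself was at 7.56 in WT and 7.60 in KO (0.04), and the ligase gene Syvn1 was at 0.17, Nfe2l2 (NRF2) at 0.22 and its repressor Keap1 at 0.22. Of the 11 genes of the VCP segregase, which extracts proteins for degradation, 7 were above 0 with a median of 0.02, led by Derl2 (0.20) and Vcp (0.20). In the ubiquitin list, Uba6 was the 1 of 6 genes measured (-0.03). Ubqln4 was the member of these 4 lists beyond 1.2-fold.

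Genes that work with the immunoproteasome were described by 2 lists. Over all genes compared, 44.3% were above 0 and 23.7% passed 1.2-fold in either direction. In the MHC class I list 5 of 12 genes were above 0, none passed 1.2-fold, and the median was -0.02, that of all genes. Nlrc5, the class I transactivator, was the lowest (-0.19), B2m was at 12.6 in WT and 12.7 in KO (0.04), and Tapbp, the peptide-loading factor tapasin, was at 0.13. The interferon-gamma list was lower by its median (-0.09, 12 of 17 below 0, against 55.7% of all genes). Its median was -0.15 over the 11 genes above a filter at the 75th percentile. In it the receptor gene Ifngr1 read 7.54 in WT and 7.26 in KO (1.22-fold lower), Gbp7 was at -0.25, Cxcl9 at -0.21 and the kinase gene Jak1 at -0.19, while Irf1 was at 0.14 and Irgm1 at 0.15. Ifngr1 was the 1 gene of the 17 beyond 1.2-fold.

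**Figure D4:**
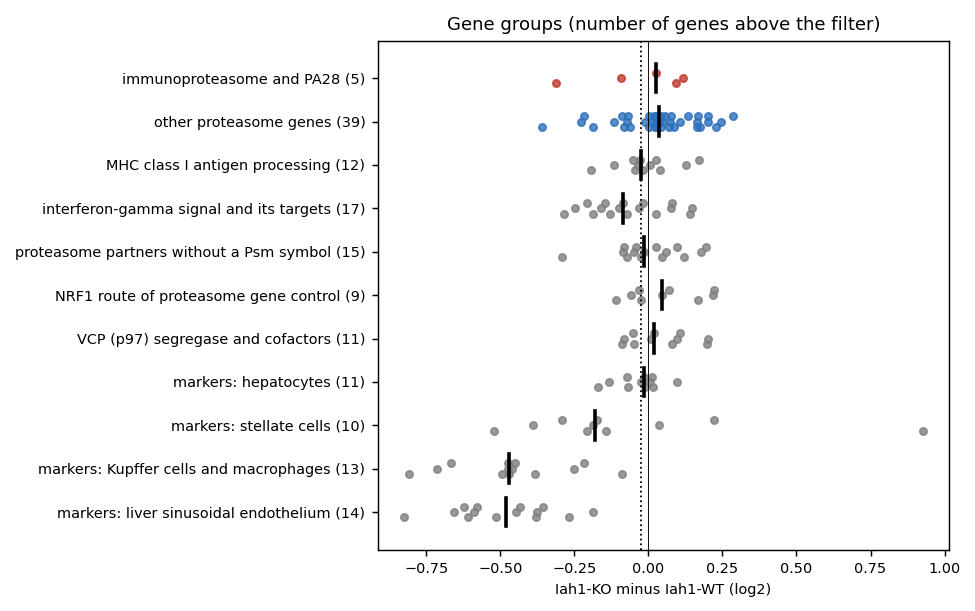
KO minus WT (log2, x axis) for each gene above the filter (points) in the proteasome groups, the pathway lists and the cell type markers, with black bars at group medians and a dotted line at the median of all genes compared. The medians of both proteasome groups plotted and of the pathway lists lie between -0.09 and 0.04, whereas the macrophage and endothelial medians lie at -0.47 and -0.48.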

How the data were processed

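Per the submitters' processing notes, the authors made the log2 values with RMA and Affymetrix Expression Console 1.3.0. RMA equalises the probe distributions of the arrays, which removes any general shift and compresses differences of dim probe sets. No genome build is named for the probe sets in these sources. Probe sets were named through the platform annotation, and the 49 members' gene identifiers all carried the same symbol in the RefSeq table (GRCm38.p6). A gene's value was the mean log2 value of its probe sets with 1 symbol. With 1 array per genotype no test or p-value was possible, and the number of arrays limits precision. Genes were counted past 1.5-fold and 1.2-fold among the 11090 above the filter, and the counting was tested on simulated data. Values were computed in Python 3.11.15 with pandas 2.3.3, and the loess fit (span 0.4) in statsmodels 0.14.6.

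Values are given for the interferon-inducible genes and their counterparts, members past 1.2-fold, the extremes of each class, and up to 4 genes of each list; other genes named were chosen after their values were seen. Members and lists were chosen with earlier results of these data known. Alternatives were the brightest probe set, no filter or one at the 75th percentile, loess, a repeated quantile normalization, centring on the median difference, and means for medians.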

Additional observations from a re-analysis of the deposited data

How the results depend on the processing

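No paired analysis was possible because each genotype has 1 array, and no replicate could be left out. Under 7 other settings and 2 chosen after seeing the data (without Psmc3ip and Psme3ip1, and with the Psma4 probe sets), the median of the 5 interferon-inducible genes ranged from -0.03, its mean, to 0.07, and that of the other members from 0.03 to 0.07. The counts at 1.5-fold stayed at 0 in each direction and the count lower by 1.2-fold at 2. The count higher by 1.2-fold went from 1 to 2 when the median difference of all genes was subtracted, since Psmc3ip then reached 0.27. Psmb8 ranged from -0.31 to -0.27, Psmd10 from -0.36 to -0.32 and Psmb1 from 0.28 to 0.31. The sign was kept by 43 of 44 members above the filter, and the exception was Psmc2 (-0.01, and 0.05 by its brightest probe set). This count does not show how reliable the signs are. The other 43 were each read by 1 probe set, so the probe set and filter settings could not change their values. The settings that rescale the arrays moved each member only slightly. The interferon-gamma list's median ranged from -0.15 (75th percentile filter) to -0.06 and that of the NRF1 route from -0.03 (brightest probe set) to 0.08. The medians of the MHC class I and partner lists lay between -0.03 and 0.01, on either side of 0. The dendritic cell markers, of which 1 passed the filter (-0.35), had a median of 0.17 over 6 genes with no filter. Members below the filter, and signals close to it, are limited by background.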

Other observations

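Some probe sets carry a proteasome symbol together with another gene and entered no comparison. The brighter of the probe sets that name Psma4 and AY074887 read 9.11 in WT and differed by -0.11, and the dimmer one was below the filter on both arrays (3.09 in WT and 3.28 in KO). A probe set shared by Psme2 and a pair of predicted genes was at 5.48 in WT and 5.56 in KO (0.07), beside 0.02 for the probe set that names Psme2 alone. A probe set shared by Armc9 and Psmd1 was at 5.33 in WT and 5.61 in KO (0.28), beside 0.03 for the one that names Psmd1 alone. RNA of the named genes cannot be told apart in these signals.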
